A study of Homo sapiens with 8 samples.

Results

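Olfactory receptor genes give a set of probe sets in a leukaemia line that can be read as a description of dim signal. The set was defined as the probe sets whose array identifier starts with TC11 and whose platform gene symbol has the form of an intact olfactory receptor (OR, a family number, letters and a member number). Symbols of pseudogenes ending in P were left out. The rule took 159 of the 21448 probe sets on each array, with 159 distinct symbols from 11 families. RefSeq lists 158 of them as protein coding and OR4C45 as a transcribed pseudogene. The rule itself uses no measured value. Low values alone do not show that these genes were silent, since background signal was not examined.

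The arrays hold RNA of CCRF-CEM, a long-established human cell line from a T-cell acute lymphoblastic leukaemia (T-ALL), grown in RPMI with serum. In both groups the cells were mixed into type I collagen from cattle at 1.7 mg/mL and held for 1 h in the polymerized gel before lysis. The treated group had first received 1 µM OICR-9429 for 1 h, a small molecule that binds WDR5, and the control is described as untreated, with no solvent mentioned. There were 4 arrays per group, numbered 1 to 4 as biological replicates, without a statement that they came from separate cultures, so p-values measure only the spread between these samples.

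Olfactory receptors are G protein-coupled receptors of the nasal epithelium, and each olfactory sensory neuron typically transcribes a single receptor allele. The other receptor genes of the neuron are kept in heterochromatin, and most receptor genes stand in clusters. Class I receptors (families OR51, OR52 and OR56 among the genes here) stand in a cluster near the beta-globin genes, and class II receptors make up the other families. Of the probe sets described here, 52 belonged to class I and 107 to class II. In RefSeq order, chosen as a description after the data were seen, 155 of 158 placed receptor genes stood next to another receptor gene, and the longest run, from OR5W2 to OR5AK2, held 31 receptor genes.

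The promoter sequences are shown because they carry a property that the choice of genes did not use. The 250 bases before the start of OR51E1 and OR10G4, the receptors with the highest signal, and of OR51A4, whose signal lay at the middle of the set, are given 5′ to 3′ from RefSeq (GRCh38.p14). Capitals mark CpG dinucleotides. OR51E1 lies at chr11:4643732-4643981 on the plus strand, OR10G4 at chr11:124012747-124012996 on the plus strand and OR51A4 at chr11:4947606-4947855 on the minus strand.
OR51E1: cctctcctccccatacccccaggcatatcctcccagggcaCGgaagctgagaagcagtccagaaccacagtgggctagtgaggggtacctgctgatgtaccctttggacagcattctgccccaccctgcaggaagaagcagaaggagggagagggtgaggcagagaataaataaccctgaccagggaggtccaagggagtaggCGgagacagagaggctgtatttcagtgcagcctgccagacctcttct
OR10G4: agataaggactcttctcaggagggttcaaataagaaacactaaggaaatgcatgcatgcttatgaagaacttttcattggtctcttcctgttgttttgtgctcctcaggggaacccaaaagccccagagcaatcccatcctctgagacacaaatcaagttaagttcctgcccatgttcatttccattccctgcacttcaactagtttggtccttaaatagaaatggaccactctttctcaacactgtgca
OR51A4: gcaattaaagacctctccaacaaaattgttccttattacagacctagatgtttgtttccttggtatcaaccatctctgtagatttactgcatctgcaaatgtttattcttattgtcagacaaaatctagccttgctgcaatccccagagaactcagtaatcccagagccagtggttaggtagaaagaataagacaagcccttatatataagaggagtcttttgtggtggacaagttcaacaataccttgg
The OR51E1 window held 2 CpG and 57.6% G or C, the OR10G4 window 0 CpG and 42.8%, and the OR51A4 window 0 CpG and 38.8%.

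RefSeq promoters of 300 bases (250 before and 50 after the start) were matched by symbol for 127 of the 159 receptors. Their median G and C content was 37.0%, against 58.3% over all 27305 promoters and 38.7% over 153 olfactory receptors on other chromosomes. The median number of CpG was 1, against 14 over all promoters. A promoter without any CpG was found for 34 receptors (26.8%), against 4.16% of all. For 1 receptor (0.787%) it had 10 or more, against 56.0% of all. For the receptors on other chromosomes these shares were 15.7% and 1.96%. The letters TATAAA, on either strand, were found in 45 (35.4%, against 12.0% of all) and the palindrome TAATTA in 30 (23.6%, against 4.98%). The palindrome CCCNNGGG was found in 9 (7.09%, against 18.6%). Receptors on other chromosomes had similar shares, 32.0% for TATAAA, 21.6% for TAATTA and 8.50% for CCCNNGGG. Promoters of equal G and C content were not compared, so these contrasts cannot be told apart from base composition. These matches are descriptions of letters and not of bound sites. Across the 127 receptors, mean signal and G and C content had a Pearson correlation of 0.173 and a Spearman correlation of 0.0475. These points share the same 8 arrays, and probe sequences were not used here.

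The median over all probe sets ran from 6.38 to 6.46 on the log2 scale of the deposited values, and no pair of arrays was identical. Both arrays numbered 4 stood apart from the other numbers: 26.3% of all probe sets were called higher and 25.5% lower on them (limma, adjusted p under 0.05). Of 18 T-lineage markers, 17 were measured, and those 17 lay above the receptors' 95th percentile on all 8 arrays, with a median level of 8.40. So did 65.6% of all probe sets and 3 of 6 measured B-cell markers, so lying above it does not mark a lineage. Among the 17, CD3E, a T-cell receptor signalling subunit, had the highest mean, 11.8, and PTCRA the lowest, 6.08. In bulk RNA, fewer cells of a type and less RNA per cell cannot be told apart.

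The receptors formed a narrow band at the bottom of every array. Their median was 3.31, 3.28, 3.32 and 3.44 on untreated arrays 1 to 4 and 3.38, 3.37, 3.24 and 3.49 on OICR-9429 arrays 1 to 4. The mean of these medians was 3.34 ± 0.07 (SD, n = 4) without the compound and 3.37 ± 0.10 (SD, n = 4) with it, so the groups overlapped and the highest value of each was array 4. The interquartile range within an array was 0.65 to 0.83. The lowest receptor on an array lay between 2.51 and 2.60. A log2 level belongs to a probe set, since probes differ in their response to the same amount of RNA, so levels of different genes are positions on the array and not amounts of transcript.

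**Figure D1:**
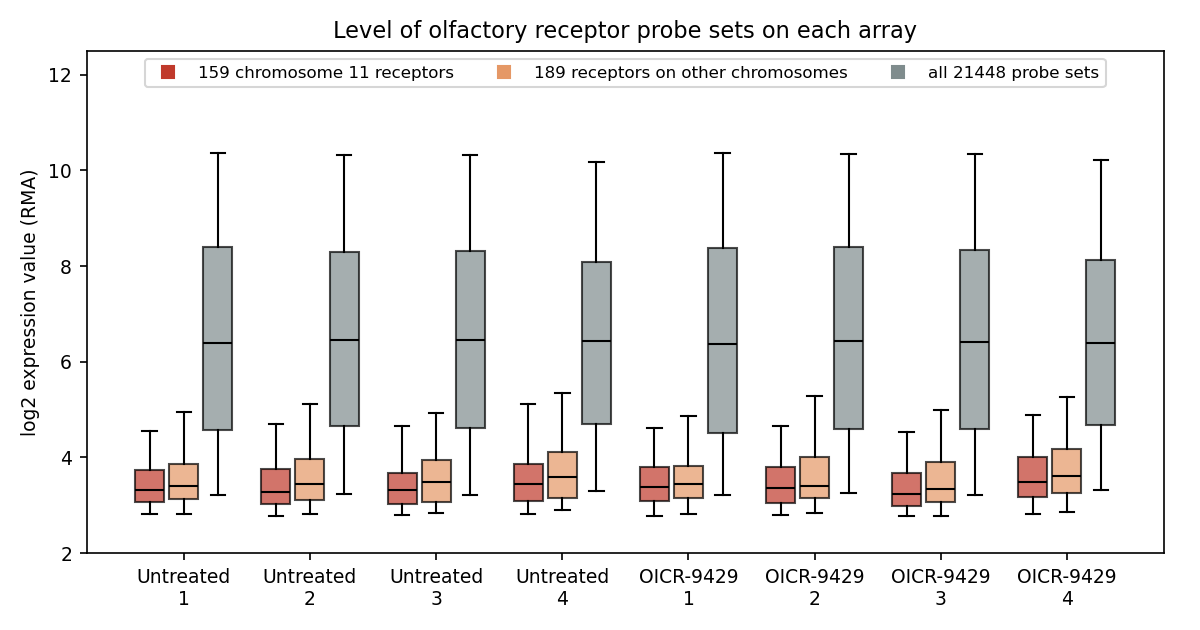
Distribution of deposited log2 values on each of the 8 arrays for the 159 chromosome 11 olfactory receptors, the 189 on other chromosomes and all probe sets, with boxes from the 25th to the 75th percentile, the median as a line and whiskers from the 5th to the 95th. The receptor medians, 3.24 to 3.49, lie far below the medians of all probe sets, 6.38 to 6.46, on every array.

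Averaged over the 8 arrays, 23 receptors had a mean under 3, 107 from 3 to 4, 25 from 4 to 5 and 4 of at least 5. The median of the means was 3.33. OR5D18 was lowest at 2.70, followed by OR8K1 (2.76), OR51Q1 (2.81), OR10A6 (2.82) and OR5AP2 (2.82). OR51A4, OR4D6 and OR56A1 lay at the middle (3.33 each). Of the receptors, 158 of 159 (99.4%) were below the array median on all 8 arrays, against 42.0% of all probe sets. When all probe sets were cut into 10 equal bins by mean level, 107 receptors fell in the dimmest bin, 35 in the next, 13 in the third, 3 in the fourth and 1 in the fifth. Olfactory receptors on other chromosomes, 189 probe sets, had a mean array median of 3.47 (range 3.35 to 3.61), and the other 1193 TC11 probe sets of 6.42.

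By family, the median of the means was 3.10 for OR8 (20 receptors), 3.24 for OR5 (33), 3.29 for OR51 (22), 3.40 for OR4 (24), 3.56 for OR52 (24), 3.79 for OR10 (14) and 3.93 for OR9 (4). The mean array median was 3.43 ± 0.09 (SD, n = 8 arrays) for class I and 3.33 ± 0.09 (SD, n = 8 arrays) for class II. Across arrays a single receptor moved little: the SD over the 8 arrays was 0.07 for OR8D4, the steadiest, 0.51 for OR10G4, the least steady, with a median of 0.21.

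The 95th percentile of the receptors on each array was taken as a line between dim and brighter signal. By its construction about 5% of the receptors lie above it. It lay at 4.55, 4.71, 4.65 and 5.12 on untreated arrays 1 to 4 and at 4.61, 4.66, 4.52 and 4.88 on treated arrays 1 to 4. The line stood highest on both arrays numbered 4. Between 23.9% and 30.8% of all probe sets lay under it on a given array, while 5.54% to 7.65% lay at or under the receptors' median. On all 8 arrays, 4297 probe sets (20.03%) lay under the line, 14079 (65.6%) above it and 3072 between. Of the receptors on other chromosomes, 159 of 189 (84.1%) lay under it on all 8 arrays and 9 above.

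Whether the line separates transcribed from silent genes was not tested. Of 19 listed genes of olfactory signalling, 18 were measured, and 11 lay above the line on all 8 arrays, 4 below and 3 between. The 11 include genes used by many cell types, such as GNB1, a G protein beta subunit (11.54), and PDE4A, a cyclic AMP phosphodiesterase (6.16). OMP, the olfactory marker protein, was also among the 11, with a mean of 5.79. So were CNGA2, a subunit of the olfactory cyclic nucleotide-gated channel (6.88), and GNAL, the olfactory G protein alpha subunit (5.56). RTP1 and RTP2, chaperones that carry receptors to the cell surface, were among the 11 too, with means of 5.33 and 5.77. STOML3, a membrane protein of olfactory cilia, lay under the line at 3.76. Of 16 listed genes of receptor choice and heterochromatin, 13 were measured. Of these, 9 were above the line on all 8 arrays, also near the share of all probe sets, including SETDB1, which methylates histone H3 lysine 9 (9.15). LHX2, a transcription factor of olfactory neurons, lay below the line (4.06). For OICR-9429, 0 of the 18 and 0 of the 13 were called, with median log2 differences of -0.004 and 0.07. For number 4, 6 of the 18 were called higher and 2 lower, and 4 and 3 of the 13. Of all probe sets 26.3% and 25.5% were called, and the second list lay near these shares. The median level of the 18, 5.75, lies in bin 5 from the dimmest of the equal bins by mean level. In that bin 38.2% of probe sets were called higher and 17.5% lower, so the first list lay near the background of its median level.

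Genes that stand next to the receptors were not uniformly dim. Of 33 other genes next to a receptor in RefSeq order, 28 were measured, with 12 above the line on all 8 arrays, 11 below and 5 between. Of all probe sets, 65.6% lay above it on all 8 arrays and 20.03% below. The share above was thus smaller, and the share below larger, among these neighbours than among all probe sets. LPXN, a leukocyte adhesion adaptor, had a mean of 10.08, MRPL17, a mitochondrial ribosomal protein, 9.65, and PATL1, an mRNA decay factor, 9.11. At the other end were OVCH2 (3.28), TMEM225 (3.33) and TRIM48 (3.55).

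Few receptors stood above the others. With a fence at the 75th percentile plus 1.5 interquartile ranges of the receptors on the array (4.66 to 5.25), OR10G4 and OR51E1 were above it on all 8 arrays, 11 receptors on 1 to 7 arrays and 146 on none. OR10G4, a class II receptor, was measured at 5.88, 6.30, 5.47 and 6.67 on untreated arrays 1 to 4 and 5.60, 5.97, 5.61 and 6.83 on treated arrays. It was the only receptor to exceed the array median on any array, and did so on both arrays numbered 4. OR51E1, a class I receptor also reported in prostate, was measured at 5.41, 5.54, 5.50 and 5.69 on untreated and 5.30, 5.62, 5.56 and 5.39 on treated arrays. Its values stayed in a narrow range with groups that overlapped (SD 0.13 over 8 arrays).

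OR52K2, a class I receptor, was above the fence on 7 arrays, with 5.34, 5.48, 5.30 and 5.44 untreated and 5.11, 5.48, 5.66 and 4.81 treated. OR5D16, a class II receptor, was above it on 6, with 5.01, 5.22, 4.94 and 5.13 untreated and 4.77, 5.32, 4.80 and 4.62 treated. OR52M1, of class I, was above it on 5, with 5.29, 4.69, 4.91 and 5.28 untreated and 5.24, 4.92, 5.06 and 4.88 treated. Treated and untreated values overlapped in each of the 3. Treated array 4 was the lowest of the 8 for OR52K2 and OR5D16, and untreated array 2 for OR52M1.

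Of the receptors with reported expression outside the nose, levels spanned the set. OR51E2, a class I receptor reported in prostate, ranked 6 of 159 with a mean of 4.82, and its values were 4.49, 4.87, 4.69 and 5.24 untreated and 4.74, 4.41, 4.59 and 5.53 treated. OR51B4 ranked 27 (4.04), OR2AT4, reported in keratinocytes, ranked 57 (3.54) and OR51B5 ranked 126 (3.05). OR51B5 varied from 2.87 to 3.11 over the 8 arrays. The 3 receptors closest in name to OR10G4 lay lower, with means of 4.49 for OR10G7, 4.25 for OR10G9 and 3.75 for OR10G8. Such close copies can share probes, which was not tested.

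**Figure D2:**
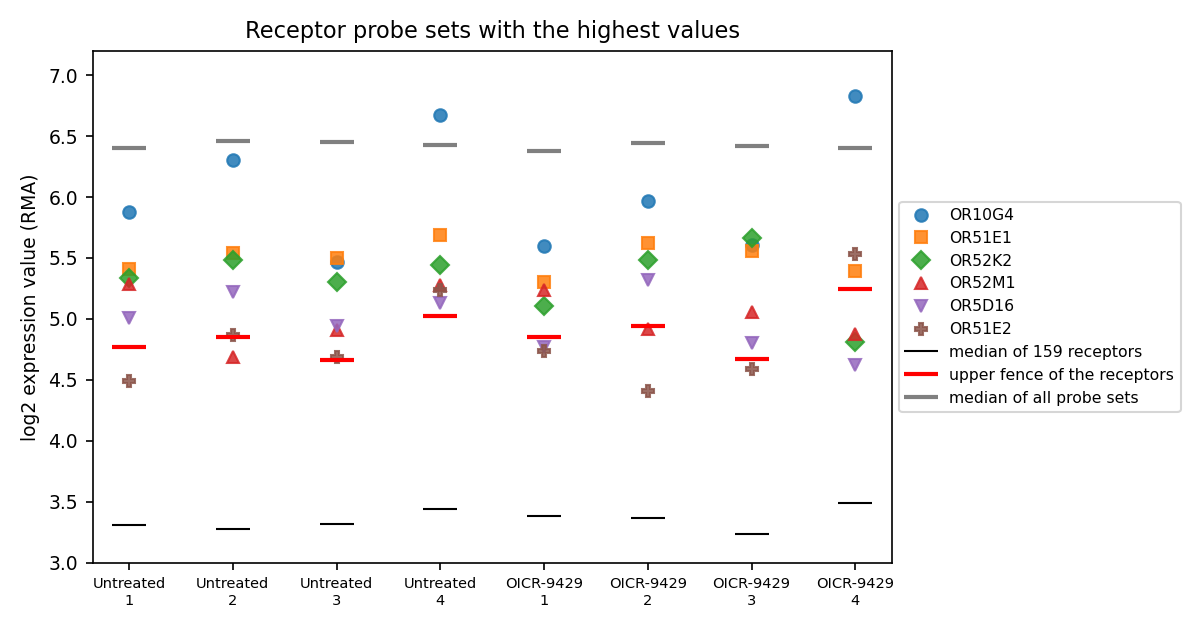
Values of the highest receptors on each of the 8 arrays, on the log2 scale, with dashes for the receptors' median, their upper fence and the median of all probe sets. OR10G4 and OR51E1 are above the fence on all 8 arrays, and OR10G4 is higher on both arrays numbered 4 than on the other 6.

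No receptor was called for OICR-9429 pretreatment. In the comparison of 4 treated with 4 untreated arrays, 0 of 159 receptors had an adjusted p under 0.05 (limma, Benjamini-Hochberg over all probe sets), as did 0% of all probe sets, and the smallest adjusted p of a receptor was 1. The median log2 difference of the receptors was 0.02, with 90 above 0, 68 below and 1 at 0, against a median of 0.005 for all probe sets. Class I had a median of 0.03 and class II of 0.02. Differences ran from -0.42 to 0.40, and 0 receptors differed by 1.5-fold or more. The median SE was 0.18, and the 95% interval of each difference lay within 2-fold for 159 of 159 receptors and within 1.5-fold for 108. Over all 21448 probe sets, 20 differed by 1.5-fold or more, and the intervals of 19191 and 9150 lay within these bounds. Background signal was not examined, so the intervals of these dim probe sets bound the measured values and not changes in RNA.

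Receptors at an unadjusted p under 0.05 numbered 1 (0.629%), against 0.49% of all probe sets. With the replicate block, a fit that pairs the arrays of the same number, 8 receptors (5.03%) passed, against 5.55% of all, with 3 higher and 5 lower, and the smallest adjusted p of a receptor was 0.841. That fit also called 0 receptors and 0% of all probe sets at an adjusted p under 0.05, with a median SE of 0.12. Treated and untreated values did not overlap for 2 receptors (1.26%), OR4D10 and OR5P3, against 0.737% of all. All 4 pairs moved the same way for 19 receptors (11.9%), against 12.6% of all. Each of these shares lay near its background.

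**Figure D3:**
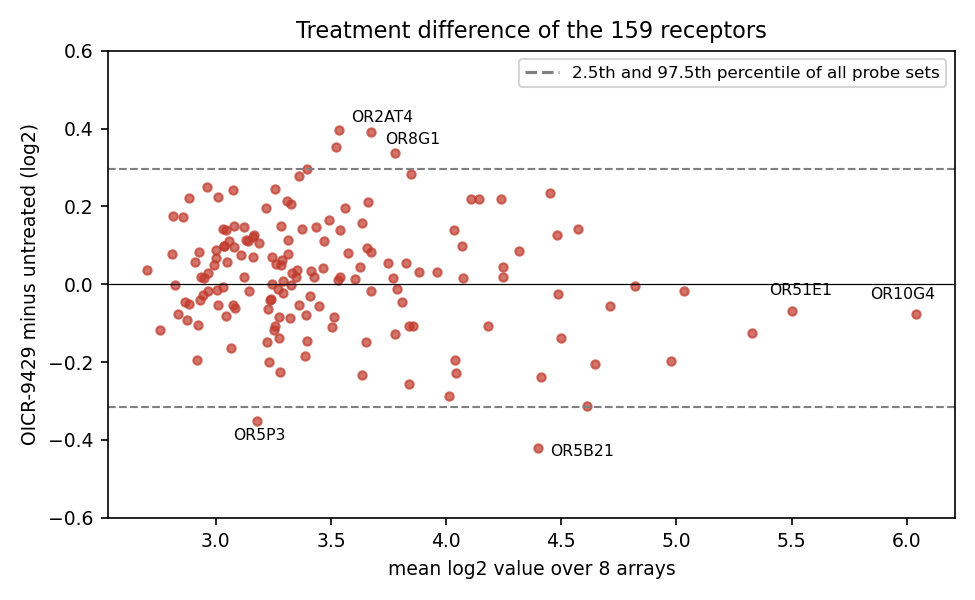
OICR-9429 minus untreated log2 differences of the 159 receptors against their mean level, each point 1 receptor, with dashed lines at the bounds of the central 95% of all probe sets. The differences lie between -0.42 and 0.40, with a median of 0.02, and none passed the test.

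Among the receptors with the largest differences, OR2AT4 read 3.57, 3.01, 3.14 and 3.63 untreated and 3.77, 3.77, 3.98 and 3.42 treated, a difference of 0.40 ± 0.20 (SE), with treated array 4 inside the untreated spread. OR8G1 read 3.42, 3.23, 3.41 and 3.86 untreated and 3.82, 3.61, 3.72 and 4.33 treated, a difference of 0.39 ± 0.21 (SE). It was higher in 4 of 4 pairs, and with the replicate block its SE was 0.09, with an unadjusted p of 0.00319 and a Benjamini-Hochberg adjusted p of 0.841 (limma). OR5I1 had a difference of 0.35 and OR51M1 of 0.34.

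In the other direction, OR5B21 read 4.71, 4.66, 4.51 and 4.56 untreated and 3.55, 4.66, 4.22 and 4.33 treated, with a difference of -0.42 ± 0.23 (SE). Treated array 1 was the lowest of the 8, and treated array 2 lay within the untreated spread. OR5P3 read 3.37, 3.39, 3.37 and 3.28 untreated and 2.90, 3.15, 2.92 and 3.04 treated, a difference of -0.35 ± 0.14 (SE), with every treated array below every untreated one. Its unadjusted p was 0.0304 and its Benjamini-Hochberg adjusted p was 1 (limma). OR5A2 and OR56A5 had differences of -0.31 and -0.29. None of these differences passed the test.

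Pair by pair, the median treated minus untreated difference of the receptors was 0.03, 0.03, -0.04 and 0.05 for numbers 1 to 4. The SD across receptors within a pair was 0.28, 0.29, 0.25 and 0.37. A pair difference of at least 2-fold was seen for 1 receptor in pair 1 (0.629%, against 0.131% of all probe sets), 0 in pairs 2 and 3 (0.704% and 0.0466% of all) and 2 in pair 4 (1.26%, against 1.29%).

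More receptors were called between replicate numbers, and all but 4 of the calls were for higher values on the arrays numbered 4. Each number was set against the mean of the other 3, with treatment in the model and 2 arrays per number. Number 4 was called higher for 31 receptors (19.5%), against 26.3% of all probe sets, and lower for 0, against 25.5% of all (limma, adjusted p under 0.05). The median difference of the receptors for number 4 was 0.11, with 109 above 0 and 50 below, against 0.08 for all probe sets and 0.14 for the dimmest 25% of probe sets. Of that dimmest set, 18.3% were called higher and 4.74% lower, and of the receptors on other chromosomes 33 of 189 (17.5%) were called higher and 6 lower. With quantile normalization, 22 receptors were called higher and 0 lower, and the median was 0.04, with 85 above 0 and 74 below, against 28.0% of all probe sets called higher and 22.7% lower under that scaling.

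Among the 31 receptors called higher, the differences ran from 0.33 to 0.95 (median 0.59). In 24 of them both arrays numbered 4 lay above the other 6. That count follows in part from their selection as higher on those arrays, and the share over all probe sets was not counted. OR10G4 had the largest difference, 0.95 ± 0.14 (SE), with an adjusted p of 0.000891. OR51B4 read 4.15, 3.97, 3.68 and 4.74 untreated and 3.39, 3.93, 3.84 and 4.60 treated, a difference of 0.84 ± 0.18 (SE), with an adjusted p of 0.00453. OR51E2 had a difference of 0.75 ± 0.16 (SE), with an adjusted p of 0.00543, while OR51E1, its neighbour in name, had 0.05 ± 0.12 (SE). By family, the calls were 7 of 14 for OR10, 3 of 5 for OR6, 4 of 22 for OR51, 4 of 24 for OR52, 3 of 24 for OR4, 3 of 33 for OR5, 3 of 20 for OR8, 2 of 5 for OR2, 1 of 4 for OR9, 1 of 6 for OR56 and 0 of 2 for OR1. These family counts are to be read against 19.5% of all receptors, 26.3% of all probe sets and 18.3% of the dimmest 25% called higher. Among all probe sets in equal bins by mean level, 13.2%, 19.9% and 28.1% were called higher in bins 1 to 3 from the dimmest. The median level was 3.79 for OR10 and 3.31 for OR6. Whether families differed in their calls was not tested. All p-values of this paragraph are Benjamini-Hochberg adjusted values from limma.

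**Figure D4:**
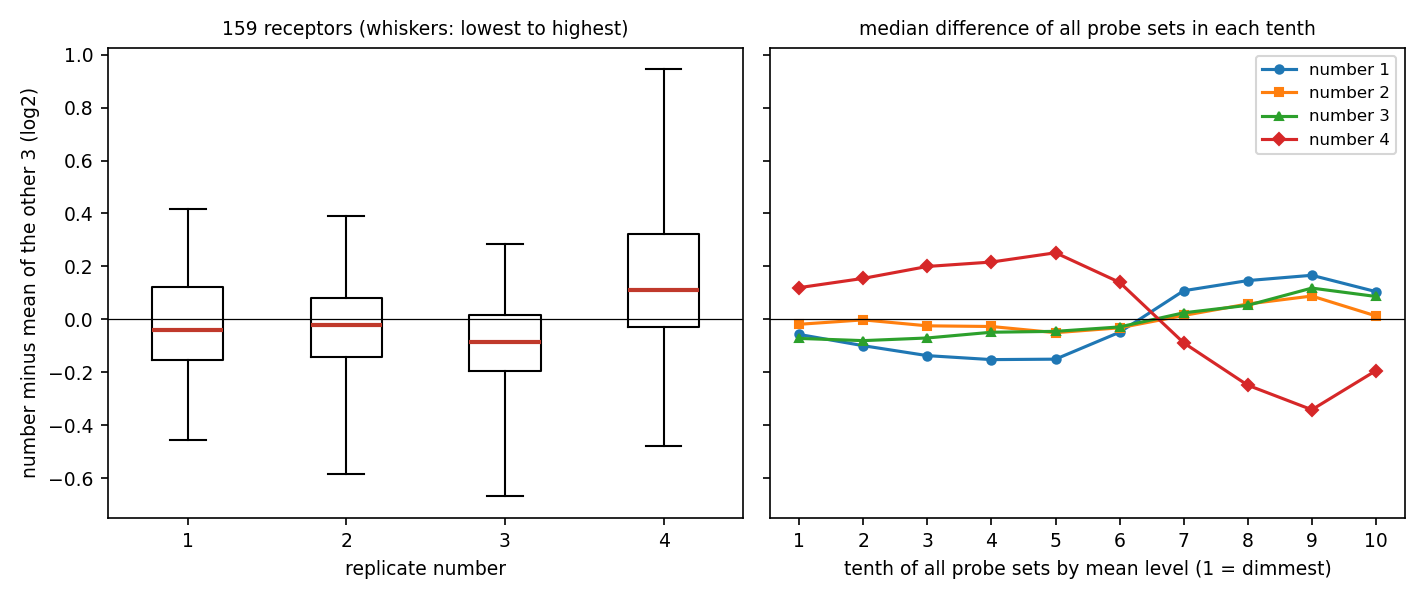
Difference of each replicate number from the mean of the other 3, on the log2 scale, for the 159 receptors (left; box from the 25th to the 75th percentile, whiskers from lowest to highest) and as medians of all probe sets in 10 bins by mean level (right). Number 4 has the highest receptor median, 0.11, and numbers 1 to 3 have medians of -0.04, -0.02 and -0.08.

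Markers of other cell types were called on the arrays numbered 4 in varying shares, to be read against 26.3% of all probe sets called higher and 25.5% lower, and their part in the receptors' shift was not tested. Of 17 T-lineage markers 7 were called higher on the arrays numbered 4 and 5 lower. Of 8 myeloid markers 4 were called higher and 0 lower, of 5 measured erythroid markers 1 and 0, of 6 measured B-cell markers 1 and 2, and of 10 olfactory sensory neuron markers 5 and 1. The T-lineage markers called lower, and the erythroid and B-cell markers called higher, lay near those shares. The mean level of the olfactory neuron markers was 5.69 to 5.83 on the arrays numbered 4 and 5.34 to 5.58 on the other 6. That of the myeloid markers was 5.59 to 5.60 against 5.04 to 5.36, and that of the erythroid markers 5.28 on both against 4.92 to 5.18. The T-lineage markers, 8.71 to 8.75 against 8.41 to 8.88, and the B-cell markers, 6.27 to 6.36 against 6.17 to 6.32, overlapped with the other arrays. Across all probe sets the median shift of number 4 was 0.12 in the dimmest of 10 equal bins by level, 0.25 in the fifth and -0.34 in the ninth.

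The other numbers gave few calls among the receptors. Number 1 was called higher for 0 receptors, against 10.6% of all probe sets, and lower for 1, OR10Q1, against 6.14%. The difference of OR10Q1 was -0.46 (adjusted p 0.0361), and its call was lost with quantile normalization (adjusted p 0.0829), with trend and robust variance (0.0684) and without number 4 (0.132), over a range of 0.0293 to 0.132 (limma, Benjamini-Hochberg). Number 2 was called higher for 0, against 15.4% of all, and lower for 3, against 11.6%, with differences of -0.59 for OR56B4 (adjusted p 0.017) and -0.57 for OR5F1 (adjusted p 0.027). OR5F1 read 3.70 on untreated and 3.16 on treated array 2, each the lowest of its group, and the treated value stood far from the other treated arrays. Its call was lost without number 1 (adjusted p 0.0633) and without number 4 (0.0591), and that of OR56B4 without number 4 (0.0521), by limma with Benjamini-Hochberg adjustment. Number 3 was called higher for 0, against 1.18%, and lower for 0, against 0.2% of all. Even so, the receptors lay lower as a set for number 3, with a median difference of -0.08, 46 above 0 and 112 below. That median was -0.075 for the dimmest 25% of probe sets and -0.01 for all probe sets. Without number 4 the receptors' median for number 3 was -0.05. Any difference between the numbers was called for 18 receptors (11.3%), against 50.3% of all probe sets, and for 0 receptors without number 4, when 13.9% of all probe sets were called. The median for number 1, -0.04, turned to 0.01 with quantile normalization and to 0.002 after centring each array.

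Receptors shared less of their deviation between same-numbered arrays than all probe sets did, as a description. Deviations from the group means correlated between same-numbered arrays, across receptors, at 0.071, 0.089, -0.021 and 0.30 for numbers 1 to 4. For all probe sets these values were 0.696, 0.748, 0.566 and 0.865, and for the dimmest 25% of probe sets 0.177, 0.294, 0.267 and 0.406. These are correlations across probe sets of the same arrays and carry no test. Of the receptors' variance over the 8 arrays, 54.8% lay between numbers, 10.6% between treatments and 34.6% in the remainder. These shares were 53.4%, 10.8% and 35.8% for receptors on other chromosomes, and 85.5%, 3.93% and 10.6% for all probe sets. Noise alone gives each part a share, and a larger one to a part with more degrees of freedom. The share between numbers is therefore not by itself the size of a replicate effect. A larger treatment share here is likewise not a larger treatment effect. The median residual SD was 0.18 for the receptors and 0.16 for all probe sets, while the median SD over 8 arrays was 0.21 and 0.31.

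**Figure D5:**
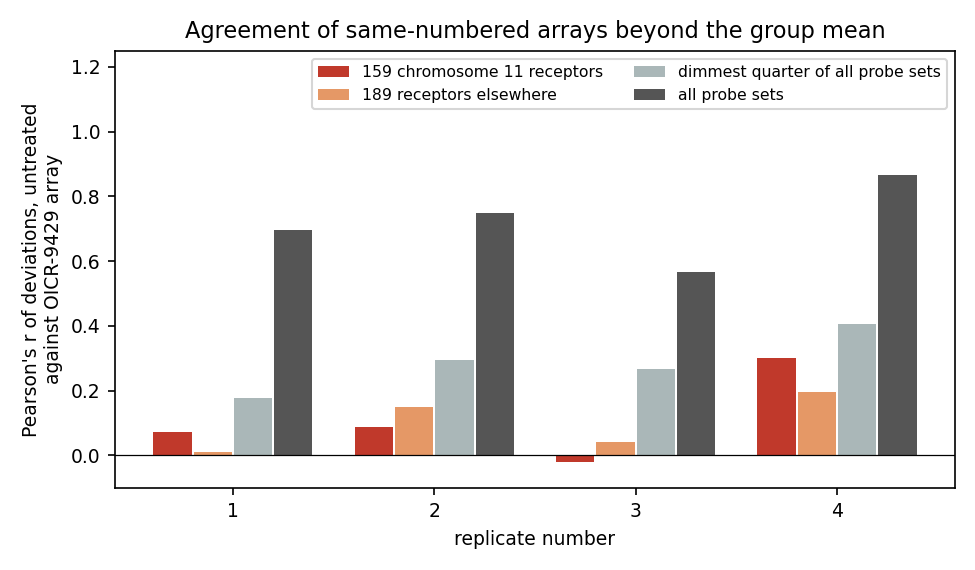
Bars of Pearson's correlation between the deviations of the untreated and the treated array of each replicate number, for the receptors, those on other chromosomes, the dimmest 25% and all probe sets. The receptors lie between -0.021 and 0.30 and all probe sets between 0.566 and 0.865.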

How the data were processed

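Per the labels, total RNA was prepared with the GeneChip WT PLUS reagents for Affymetrix arrays. The authors deposited log2 values per probe set. The submitters' processing notes name RMA, which corrects background, normalizes arrays and summarises probes, and the Transcriptome Analysis Console, with versions and genome build not given in the sources used here. Scanner files were not used here, so background signal was not examined, and precision is limited by the number of arrays. Names came from the platform annotation (17709 with 1 symbol, 0 with several, 3739 with none). The receptors and lists were chosen with earlier results of these data known.

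limma 3.58.1 (R 4.3.3) was fitted to all 21448 probe sets, with lmFit and eBayes, two-sided tests and Benjamini-Hochberg adjustment over all probe sets, threshold 0.05. The treatment fit had no covariate. Numbers were tested with treatment in the model (3 residual degrees of freedom). Same-numbered deviations correlated at 0.566 to 0.865 across all probe sets, above a limit of 0.1, so the numbers, from the sample titles, pair the arrays and the replicate block was also fitted. Both fits were run on simulated data with planted changes of 2 log2 units, larger than any difference of a receptor here. Smaller changes were not simulated, so those runs give no measure of how well differences as small as the receptors' are found. Named receptors were those above the fence on all arrays, the 5 highest and 5 lowest, the 3 nearest the median, the 4 largest and smallest treatment differences, up to 2 called in each direction per number, and 5 reported outside the nose. Other named genes were chosen after their values were seen. Alternatives were quantile normalization, array centring, a variance trend, a filter on dim probe sets and leaving out arrays or pairs.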

Additional observations from a re-analysis of the deposited data

Results flagged for a closer look

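In a group of 4 arrays, 1 value stood far from the other 3: OR5F1 on OICR-9429 array 2 was 3.16, against 3.96, 3.98 and 4.11 on the other treated arrays. This was 1 of 62 groups examined, and chance gives about 1 in 20 for groups not picked by their values. Many of these groups belong to receptors named for their values on the same arrays, OR5F1 among them, so that rate is only a rough guide.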

How the results depend on the processing

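No receptor was called for OICR-9429 under any alternative run. Receptors at an unadjusted p under 0.05, 1 as reported, numbered 8 with the replicate block, 2 with trend and robust variance, 0 with the dim filter (which leaves 8 receptors), and 0 to 3 without single arrays or pairs; with the block they were 5 with quantile normalization, 5 with trend and robust variance, 0 with the dim filter, and 9, 7, 9 and 5 without pairs 1 to 4 (the block combinations were chosen after seeing the data). The median treatment difference, 0.02, was -0.0725 with the dim filter and -0.0092 to 0.0708 without single arrays or pairs, highest without treated array 3. For number 4, the calls were 3 of the 8 receptors left with the dim filter. Without another pair they ran from 23 to 29 of 159, all higher, when 23.1% to 23.7% of all probe sets were called higher. The median for number 4 was 0.035 with quantile normalization. Shares over all probe sets are not given here for the calls of numbers 1 to 3 that follow. For number 1, the calls were 2 after centring, 0 with trend and robust variance or the dim filter, and 0 to 3 without another pair (3 without 2 or 3, 0 without 4), and the median was 0.0066 with quantile normalization, 0.0017 after centring, -0.23 with the dim filter and -0.06 to 0.0175 without another pair. For number 2, the calls were 6 after centring, 1 with the dim filter and 0 to 5 without another pair (5 without 3, 0 without 4), and the median was 0.12 with the dim filter. For number 3, the calls were 1 with trend and robust variance, 1 with the dim filter and 0 to 2 without another pair. Any difference between numbers was called for 2 of 8 receptors (25.0%) with the dim filter, against 67.0% of all probe sets kept. Without a pair it was called for 0 to 19 of 159, against 13.9% to 48.5% of all. The calls of all numbers together were 35 as reported and 5 with the dim filter. With the fence at 3 interquartile ranges, or at the array median, 0 receptors were above it on all 8 arrays. The causes were not tested, beyond the smaller number of receptors that the dim filter leaves. The pseudogene alternative was not run, since no TC11 symbol ended in P.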
